A study of Homo sapiens with 33 samples.

Results

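PARP1, PARP2, PARP3, PARG, TP53BP1, RIF1, PRKDC, XRCC5, XRCC6 and LIG4 were followed here as the PARP and end-joining genes, 10 of the 29744 genes in the deposited tables. They were chosen by symbol for their roles, with earlier results of these data known. RNA sequencing had been done on 33 libraries, 3 replicates of each of 11 lines of high-grade serous ovarian cancer (HGSOC). The lines form 4 families. OVCAR3 and OVCAR4 are the sensitive parents of OVCAR3 ResA, OVCAR3 ResB, OVCAR4 ResA and OVCAR4 ResB, each an independent derivative selected by pulses of cisplatin and kept without the drug afterwards. PEA1 and PEA2, and PEO1, PEO4 and PEO6, are established lines from tumours before (PEA1, PEO1) and after (PEA2, PEO4, PEO6) resistance to platinum arose. PEA1 and PEA2 came from the same patient, and so did PEO1, PEO4 and PEO6. By the study's text PEO4 and PEO6 are thought to share a clone of origin, so they may not be independent cases of resistance. The roles of the lines, 4 sensitive and 7 resistant, came from the study's text. Each resistant line is 1 derivative or 1 isolate, so its 3 libraries measure the spread within that line and not among resistant lines. The labels do not say whether the replicates were separate cultures, and the p-values then cover only the spread between these libraries, which may be technical.

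PARP1, PARP2 and PARP3 are enzymes that attach ADP-ribose to proteins at DNA breaks, and PARG removes the chains again. 53BP1 (TP53BP1) and its partner RIF1 shield broken ends from resection, which favours end joining over homologous recombination. In classical non-homologous end joining the Ku70/Ku80 ring (XRCC6 and XRCC5) binds the ends, recruits the kinase DNA-PKcs (PRKDC), and DNA ligase IV (LIG4) seals them. PARP inhibitors are used in HGSOC, and loss of PARP1, PARG or the 53BP1 pathway is a known route to PARP inhibitor resistance in experimental systems.

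Levels are given as TPM, a transcript share scale corrected for transcript length. Differences are log2 fold changes of normalised counts from DESeq2, resistant over sensitive line, with the standard error (SE). A change was called when the p-value, adjusted by Benjamini-Hochberg over all genes tested, was under 0.05. Total counts ran from 18058985 to 43394009 per library, and none of the 10 genes was at 0 in any library. Serous epithelial markers were at 1 TPM or more for 8 to 10 of 10 genes in every line. SOX17 was at 0 in all libraries of PEO1 and PEO4, and the summed level in PEA1 was 407 to 450 TPM, against 2443.5 TPM or more in every other line. The leukocyte markers (5 genes) summed to 55.2 to 57.7 TPM in PEA2 and 10.6 to 23.7 TPM in PEA1, with CD3E at 0 in both. The fibroblast markers (5 genes) summed to 69.6 to 116 TPM in PEA1, with COL3A1 and DCN at 0 there, and to at most 30.5 TPM in any other line. The endothelial markers (4 genes) summed to at most 14.7 TPM. The part of these differences in the PEA2 results below was not tested.

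The share of counts from mitochondrial ribosomal RNA varied from 1.12% to 14.8%. It differed between replicates of a line, and several of the 10 genes moved with it. In OVCAR3 ResB it was 5.97%, 8.88% and 1.12% in replicates 1 to 3. In OVCAR4 it was 5.18%, 14.8% and 12%, whereas OVCAR4 ResA had 9.23%, 2.02% and 2.09% and OVCAR4 ResB had 13.1%, 2.47% and 2.39%. Replicate 1 therefore had the lowest share in the OVCAR4 parent and the highest in both of its derivatives. In bulk libraries, fewer cells expressing a gene and less RNA per cell cannot be told apart.

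Among 70 gene-by-pair values, 14 were called, 8 higher and 6 lower in the resistant line. In OVCAR3 ResA against OVCAR3, 4 of 10 genes were called (PARG and LIG4 higher, PARP1 and PRKDC lower), against 44.9% of all genes tested (22.0% higher and 22.9% lower). In OVCAR3 ResB against OVCAR3 none was called by DESeq2 or edgeR, 1 was under an unadjusted p of 0.05, and 7.67% of all genes were called. None was called in OVCAR4 ResA (background 11.9%) or OVCAR4 ResB (17.9%) against OVCAR4 by DESeq2 or edgeR, with 0 under an unadjusted p of 0.05 in both. In PEA2 against PEA1, 3 rose (PARG, XRCC6 and LIG4), with a background of 47.0% (23.3% higher). In PEO4 against PEO1, RIF1 and XRCC5 rose and XRCC6 fell, 3 of 10 against 33.3% (16.6% higher and 16.7% lower). In PEO6 against PEO1, RIF1 rose and TP53BP1, PRKDC and XRCC6 fell, 4 of 10 against 41.4% (21.2% higher and 20.3% lower). In all 7 pairs the share of the 10 genes called was below the share of all genes called. The median log2 fold change of the 10 genes ran from -0.27 in PEO6 to 0.31 in OVCAR4 ResB, where the medians of all genes tested were 0.02 and -0.01. Pairs within a family share the sensitive parent's libraries.

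**Figure D1:**
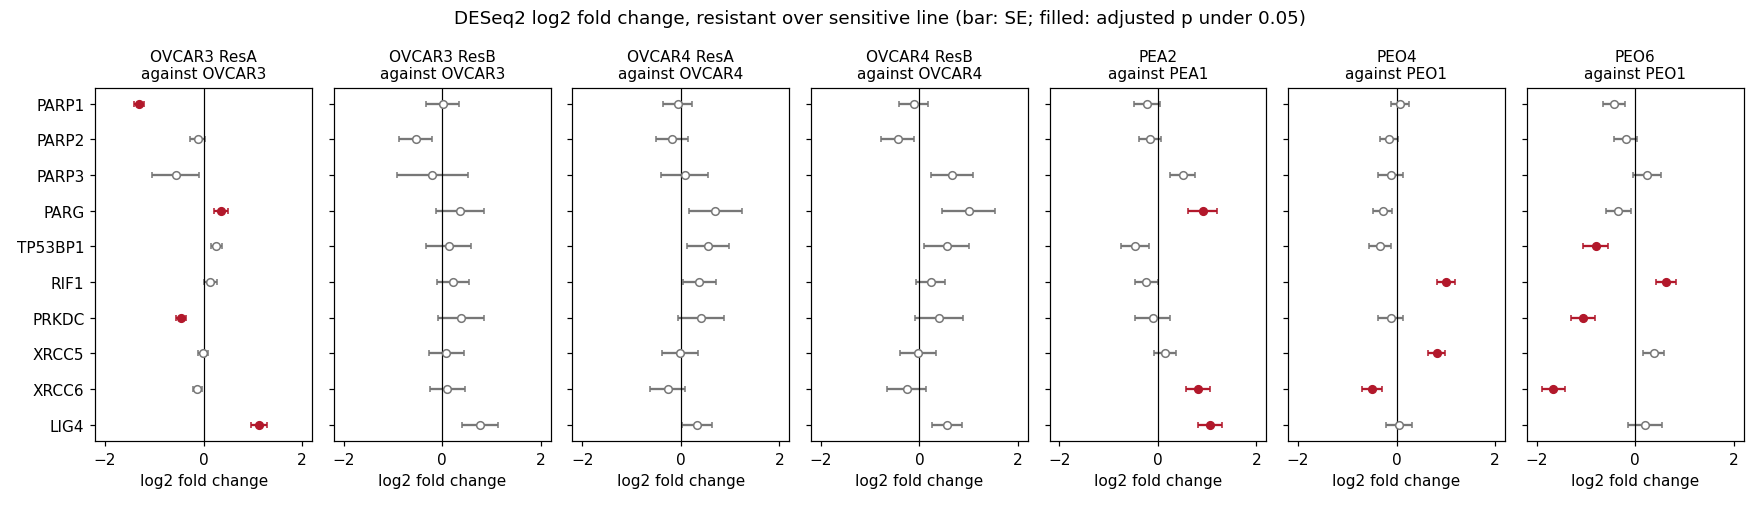
Log2 fold change of each of the 10 genes (horizontal axis) in the 7 pairs of a resistant and a sensitive line, from DESeq2 on 3 libraries a line, with bars for 1 SE and filled points for adjusted p under 0.05. LIG4 lies above 0 in all 7 panels and PARP2 below 0 in all 7, while XRCC6 reaches 0.81 in PEA2 and -1.66 in PEO6.

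PARP1, the main PARP enzyme at DNA breaks and the chief target of PARP inhibitors, fell in OVCAR3 ResA and was called in no other pair. The gene lies at chr1:226360691-226408093 (RefSeq, GRCh38.p14, as for every position given here). It measured 129, 94.5 and 111 TPM in OVCAR3, and 56.8, 47.4 and 44.4 TPM in OVCAR3 ResA. The highest OVCAR3 ResA library was below the lowest OVCAR3 library. The log2 fold change was -1.31 ± 0.10 (SE, n = 3 per line, adjusted p = 6.84e-36), which is 2.48-fold lower, and the call held under every alternative analysis. OVCAR3 ResB, selected from the same parent, had 83.0, 112 and 186 TPM. It did not differ detectably from OVCAR3 (log2 fold change 0.01, 95% interval -0.65 to 0.67), and it exceeded OVCAR3 ResA by 1.32 ± 0.35 (adjusted p = 0.00262), the 1 gene of 10 called between these derivatives against 13.5% of all genes (7.47% higher). With edgeR, with limma on TPM, or without replicate 2, no gene of the 10 was called in that last comparison.

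By the means of the 11 lines PARP1 fell into a higher and a lower set. The 7 lines other than OVCAR3 ResA and the PEO family had means from 75.1 ± 11.9 (SD, OVCAR4) to 127 ± 53.1 TPM (OVCAR3 ResB). OVCAR3 ResA stood at 49.5 ± 6.49, PEO4 at 41.8 ± 9.92, PEO1 at 40.7 ± 9.03 and PEO6 at 31.7 ± 13.4 TPM. Between OVCAR4 and OVCAR3 ResA the intervals of mean ± SD did not meet, the 1 such gap among the 10 neighbouring pairs in the order. The mean PARP1 level in OVCAR3 ResA was thus nearer to the PEO lines than to its own parent. Single libraries of the sets overlapped, with PEA2 replicate 3 at 56.1 TPM and OVCAR3 ResA replicate 1 at 56.8 TPM.

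PARP2 (chr14:20343635-20357904), which shares part of PARP1's role, had a negative fold change in all 7 pairs and was called in none. Its values ran from -0.54 ± 0.33 in OVCAR3 ResB to -0.12 ± 0.14 in OVCAR3 ResA. In TPM it ranged 2.16-fold over the lines, from 20.7 ± 6.26 in OVCAR4 to 44.6 ± 4.83 in PEA1, and no neighbouring lines in that order were separated by their SDs. The direction does not hold on the TPM scale in 3 pairs, where limma gave 0.025 in OVCAR3 ResA, 0.33 in OVCAR4 ResA and 0.12 in OVCAR4 ResB. In both OVCAR4 pairs PARP1, XRCC5 and XRCC6 turned from negative to positive with limma as well, so that change was not particular to PARP2. Without replicate 1 PARP2 also turned in OVCAR3 ResA (0.026).

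PARP3 (chr3:51942363-51948867), a PARP that attaches single ADP-ribose units and acts in end joining, had levels that followed the families. Its level was 0.714 ± 0.117 to 1.0 ± 0.621 TPM in the OVCAR3 family. It was 1.80 ± 0.166 to 4.35 ± 1.19 TPM in the OVCAR4 family, 5.50 ± 1.10 to 7.36 ± 1.19 TPM in the PEO family, and 10.1 ± 1.73 and 12.8 ± 1.06 TPM in PEA1 and PEA2. That is an 18-fold span, the widest of the 10 genes in these lines. Of the 10 neighbouring pairs in the order, 3 were separated by their SDs, all of them between OVCAR4 ResB and OVCAR3 ResB. No pair of a resistant and a sensitive line was called for PARP3. In PEA2 the log2 fold change was 0.50 ± 0.25 (adjusted p = 0.0909), and it passed the threshold without the replicate block (adjusted p = 0.0129), with edgeR (adjusted p = 0.0484) and with the trend on transcript length removed (adjusted p = 0.0398).

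**Figure D2:**
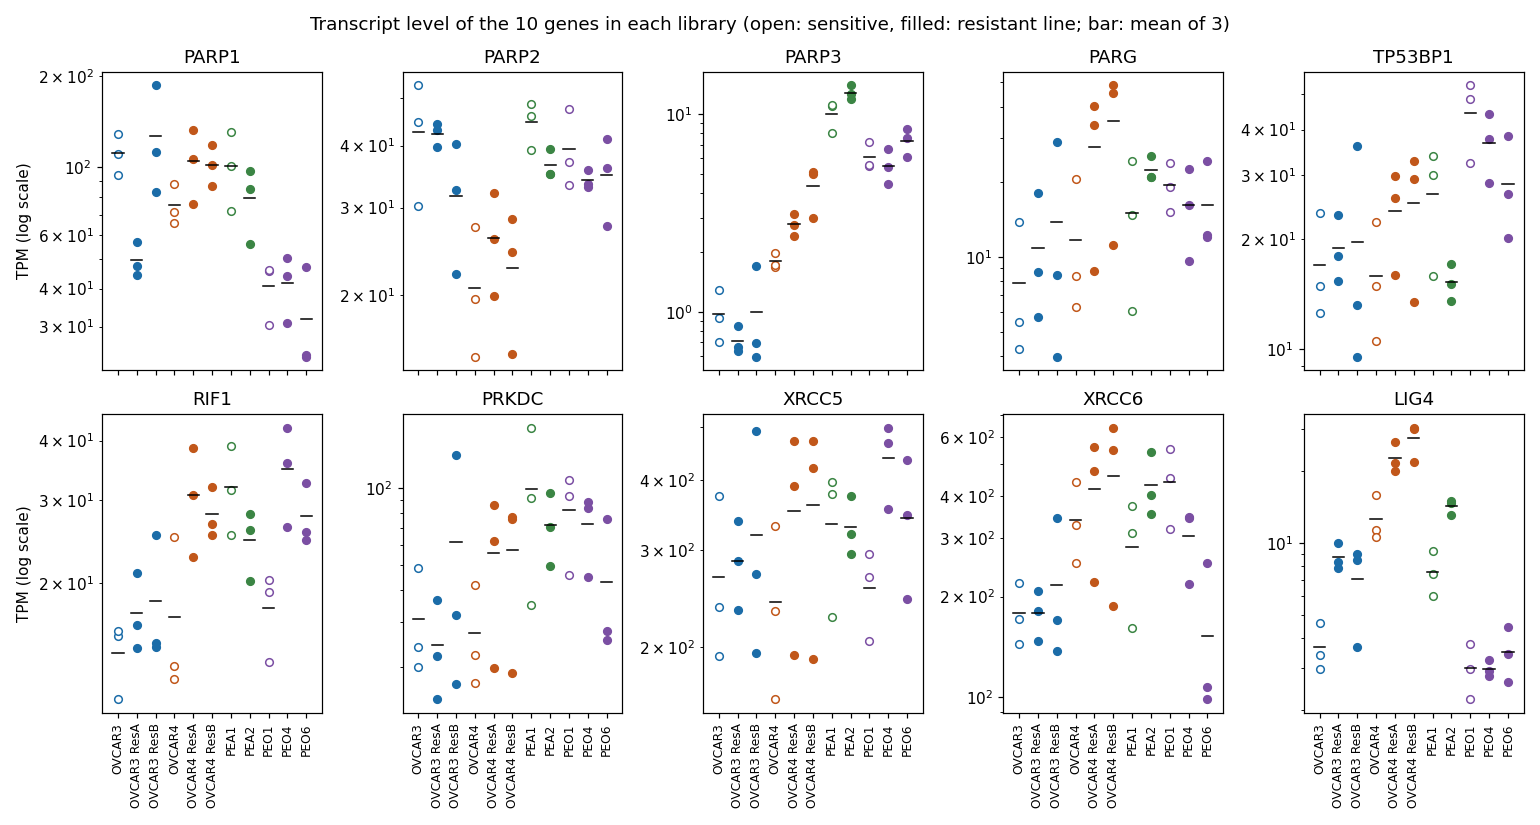
TPM (vertical log axes, each panel with its own range) of the 10 genes in all 33 libraries of the 11 lines (horizontal axes), open points for sensitive and filled points for resistant lines, black bars for the mean of 3. PARP3 rises from the OVCAR3 to the OVCAR4, PEO and PEA families, LIG4 is lowest in the PEO lines and highest in the OVCAR4 derivatives, PARP1 is low in OVCAR3 ResA and the PEO lines, and PARG, PRKDC and XRCC6 scatter widely between replicates of 1 line.

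PARG (chr10:49818279-49942027), the main enzyme that breaks down poly(ADP-ribose), was called higher in OVCAR3 ResA and in PEA2. It measured 14.7, 6.03 and 24.2 TPM in PEA1 and 25.2, 20.8 and 20.9 TPM in PEA2, and the ranges overlapped. The log2 fold change was 0.90 ± 0.30 (adjusted p = 0.0068). In OVCAR3 it was 13.8, 5.49 and 4.26 TPM and in OVCAR3 ResA 18, 8.67 and 5.76 TPM. Each OVCAR3 ResA library was above the OVCAR3 library of the same number, although the groups overlapped (0.35 ± 0.14, adjusted p = 0.0372). That call was lost without the replicate block (adjusted p = 0.648) and without each replicate in turn (adjusted p = 0.177 to 0.276). The PEA2 call was lost without the block (adjusted p = 0.0561), with limma (adjusted p = 0.136), and without replicate 1 (adjusted p = 0.124) or replicate 2 (adjusted p = 0.169). PARG also differed between OVCAR4 ResB and OVCAR4 ResA (0.31 ± 0.11, adjusted p = 0.013), the 1 gene of 10 called there against 32.8% of all genes (16.2% higher). No gene of the 10 was called in that comparison without the block or without any 1 of the replicates.

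In TPM, PARG differed by more between replicates in the OVCAR4 derivatives than in any other line, while relative to the mean the widest was OVCAR3 ResB (8.42, 3.98 and 28.8 TPM, a coefficient of variation of 96.4%). OVCAR4 had 20.5, 6.27 and 8.35 TPM, OVCAR4 ResA 8.76, 33.6 and 40.2 TPM, and OVCAR4 ResB 11.2, 45.4 and 48.6 TPM. Replicates 2 and 3 of both derivatives were above every OVCAR4 library, and replicate 1 ran the other way. Over all replicates the log2 fold changes were 0.70 ± 0.54 and 1.0 ± 0.54, and neither was called. Without replicate 1 they were 1.59 (adjusted p = 1.29e-12) and 1.86 (adjusted p = 5.23e-21). Removing replicate 1 raised the called genes from 0 to 4 in OVCAR4 ResA (PARG, TP53BP1, RIF1 and PRKDC, all higher). In OVCAR4 ResB it raised them from 0 to 5 (PARG, TP53BP1, PRKDC, XRCC5 and LIG4, all higher). The calls among all genes tested rose too, from 1784 of 14993 to 6221 of 15254 in OVCAR4 ResA. In OVCAR4 ResB they went from 2853 of 15968 to 7241 of 15714. Replicates 2 and 3 carried 14.8% and 12% mitochondrial ribosomal RNA in OVCAR4 against 2.02% to 2.47% in the derivatives, and the part of that difference in these values was not tested.

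TP53BP1 (chr15:43403061-43510640), the scaffold that blocks resection of broken ends, fell in PEO6. It measured 48.4, 32.4 and 52.9 TPM in PEO1 and 26.6, 20.2 and 38.3 TPM in PEO6, with overlapping ranges, for a log2 fold change of -0.80 ± 0.25 (adjusted p = 0.00397). The call was lost without replicate 1 (adjusted p = 0.111), without replicate 2 (adjusted p = 0.0912) and in a fit of all 33 libraries (adjusted p = 0.172). PEO1 had the highest mean of the 11 lines, 44.5 ± 10.8 TPM, and PEA2 the lowest, 15.3 ± 1.80 TPM. TUBGCP4, which overlaps the end of TP53BP1 on the opposite strand, was also lower in PEO6 (-0.99 ± 0.22, adjusted p = 3.08e-05). TUBGCP4 was called lower in 3 of the 7 pairs and TP53BP1 in 1, and their r over the 11 lines was 0.21. The strand setting of the authors' counting is not stated, so reads from the shared stretch could belong to either gene.

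RIF1 (chr2:151409902-151534435), which 53BP1 recruits to breaks, rose in both resistant PEO lines while TP53BP1 did not rise in either. It measured 20.3, 13.7 and 19.2 TPM in PEO1, 42.5, 35.8 and 26.3 TPM in PEO4, and 25.7, 24.7 and 32.6 TPM in PEO6. Every PEO4 and PEO6 library was above every PEO1 library. PEO4 and PEO6 may share a clone and were compared with the same PEO1 libraries, so their rises are not separate observations. The log2 fold change was 1.01 ± 0.18 in PEO4 (2.01-fold, adjusted p = 1.17e-07), a call that held under every alternative. In PEO6 it was 0.63 ± 0.21 (adjusted p = 0.00843), lost with limma (adjusted p = 0.0521), without replicate 2 (adjusted p = 0.121) and without replicate 3 (adjusted p = 0.0891). TP53BP1 in PEO4 had -0.33 ± 0.22 (adjusted p = 0.276).

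PRKDC, the catalytic subunit of DNA-PK, fell in OVCAR3 ResA and PEO6. In PEO1 it measured 93.1, 45.7 and 107 TPM, and in PEO6 25.4, 27.6 and 75.8 TPM. PEO6 replicate 3 lay within the PEO1 range and the other 2 were below it. The log2 fold change was -1.05 ± 0.25 (2.08-fold lower, adjusted p = 0.000119), lost in the fit of all 33 libraries (adjusted p = 0.124). In OVCAR3 it was 48.6, 23.9 and 19.9 TPM and in OVCAR3 ResA 36.3, 21.9 and 14.9 TPM. The ranges overlapped and each OVCAR3 ResA library was below its same-numbered OVCAR3 library (-0.46 ± 0.10, adjusted p = 2.07e-05). That call was lost without the replicate block (adjusted p = 0.37) and in the fit of all 33 libraries (adjusted p = 0.565).

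In PEO6 against PEO1, 8 of 10 proliferation genes were also lower and none was higher, against 20.3% lower of all genes, with MKI67 at -1.43 ± 0.26 (adjusted p = 4.31e-07). Their summed level was 927 ± 264 TPM in PEO6 and 1467 ± 257 TPM in PEO1. MCM4, a subunit of the replicative helicase whose gene starts 804 bases from PRKDC on the opposite strand, fell by 1.10 there (SE 0.23, adjusted p = 1.78e-05) and by 0.90 in OVCAR3 ResA (SE 0.12, adjusted p = 1.22e-12). It also fell in PEO4, by 0.50 (SE 0.18, adjusted p = 0.0221), where PRKDC was not called. Its part in the PRKDC result was not tested.

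PRKDC showed the widest spread between replicates of 1 line. OVCAR3 ResB had 31.9, 17.1 and 135 TPM, a coefficient of variation of 105%. PRKDC also has the longest transcript of the 10, 5.57 times the median effective length of all genes. Across the 33 libraries, the deviation of PRKDC from its line mean had a Pearson r of 0.93 with the deviation of the longest 10% of transcripts and -0.82 with that of the mitochondrial ribosomal RNA share. TP53BP1 had 0.90 and -0.84, and PARG 0.84 and -0.91. The Ku genes followed, XRCC5 with 0.67 and -0.85 and XRCC6 with 0.77 and -0.71. For PARP1 these were 0.65 and -0.15, for RIF1 0.53 and -0.23, and for LIG4 0.12 and -0.12. PARP2 (-0.16 and -0.26) and PARP3 (-0.29 and 0.19) had weak values too. These are descriptions over libraries that share a line mean by 3. PRKDC, TP53BP1, PARG, XRCC5 and XRCC6 thus varied with both of these library-wide quantities. Of these quantities, PARP1 and RIF1 varied mainly with that of the long transcripts, and LIG4 little with either. With the mean deviation of the 10 proliferation genes, r was 0.93 for XRCC6, 0.86 for PRKDC, 0.85 for TP53BP1 and 0.83 for XRCC5. It was 0.76 for both PARG and PARP1, 0.48 for RIF1, 0.16 for PARP2, -0.32 for LIG4 and -0.42 for PARP3. The part of these library-wide quantities in the results of these genes was not tested.

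**Figure D3:**
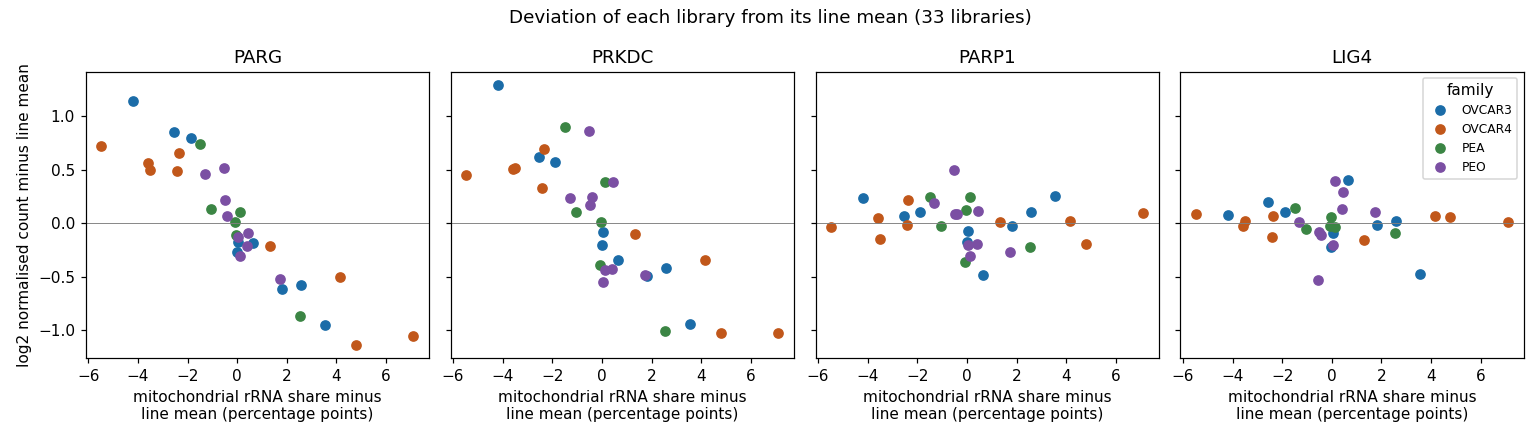
Deviation of the log2 normalised count of PARG, PRKDC, PARP1 and LIG4 from the mean of the line (vertical axis) against that of the mitochondrial ribosomal RNA share in percentage points (horizontal axis), 1 point per library, coloured by family. PARG and PRKDC fall steadily as the share rises (r of -0.91 and -0.82), and LIG4 and PARP1, which range from -0.53 to 0.41 and from -0.49 to 0.50, show little relation to it (r of -0.12 and -0.15).

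XRCC5 (chr2:216109348-216206293) and XRCC6 (chr22:41621295-41664041) encode the partner subunits of the Ku ring, and their transcripts did not move together. In PEO4, XRCC5 (Ku80) rose from 268, 205 and 295 TPM in PEO1 to 497, 467 and 355 TPM, with no overlap. The log2 fold change was 0.82 ± 0.17 (1.76-fold, adjusted p = 1.21e-05) and held under every alternative. XRCC6 (Ku70) in the same lines was 453, 319 and 554 TPM in PEO1 and 347, 343 and 219 TPM in PEO4. Those ranges overlapped, and the fold change of -0.51 ± 0.21 (adjusted p = 0.0423) was lost with edgeR (adjusted p = 0.0871), limma (adjusted p = 0.172), all 33 libraries (adjusted p = 0.27), and without replicate 1 (adjusted p = 0.216) or replicate 3 (-0.21, adjusted p = 0.15).

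In PEO6, XRCC6 measured 107, 98.5 and 252 TPM, every library below every PEO1 library. It fell by 1.66 (SE 0.23, 3.16-fold lower, adjusted p = 9.16e-12), the largest change of the 10 genes in any of the 7 pairs, and held under every alternative. XRCC5 in PEO6 was 346, 245 and 434 TPM (0.37 ± 0.22, adjusted p = 0.159). XRCC6 was also lower in PEO6 than in PEO4 (-1.17 ± 0.36, adjusted p = 0.00968), the 1 gene of 10 called there against 18.2% of all genes (8.33% lower), and none was called there by edgeR, by limma, or without replicate 1 or 2. The proliferation list, lower in PEO6 as given above, moved with XRCC6 between replicates too (r of 0.93 over the 33 libraries), and its part in the XRCC6 result was not tested.

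In PEA2 the XRCC6 change had the opposite sign. PEA1 had 311, 161 and 375 TPM and PEA2 541, 404 and 353 TPM, with an overlap (0.81 ± 0.25, adjusted p = 0.00354). The call was lost with limma (adjusted p = 0.092) and without replicate 1 (adjusted p = 0.132) or replicate 2 (adjusted p = 0.0598). A processed copy, XRCC6P5, stayed at or below 0.0527 TPM in every library.

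The ratio of XRCC6 to XRCC5 TPM, taken within each library and chosen after the values were seen, differed most within the PEO family. It was 1.69, 1.55 and 1.88 in PEO1, 0.698, 0.735 and 0.615 in PEO4, and 0.308, 0.403 and 0.580 in PEO6. The 3 PEO lines did not overlap. OVCAR3, OVCAR3 ResA and OVCAR3 ResB had means of 0.685 ± 0.0874, 0.625 ± 0.00761 and 0.691 ± 0.183, and OVCAR4, OVCAR4 ResA and OVCAR4 ResB had 1.43 ± 0.116, 1.18 ± 0.0401 and 1.22 ± 0.205. In PEA1 it was 0.826 ± 0.116 and in PEA2 1.30 ± 0.129, without overlap. Ku70 transcripts thus outnumbered Ku80 transcripts in PEO1 and were fewer in PEO4 and PEO6. With 3 libraries a line, the exact two-sided permutation test cannot go below 0.1, and over the 10 comparisons made it gave 0.1 (Benjamini-Hochberg adjusted 0.2) for PEO4 and PEO6 against PEO1, PEO6 against PEO4, PEA2 against PEA1 and OVCAR4 ResA against OVCAR4.

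**Figure D4:**
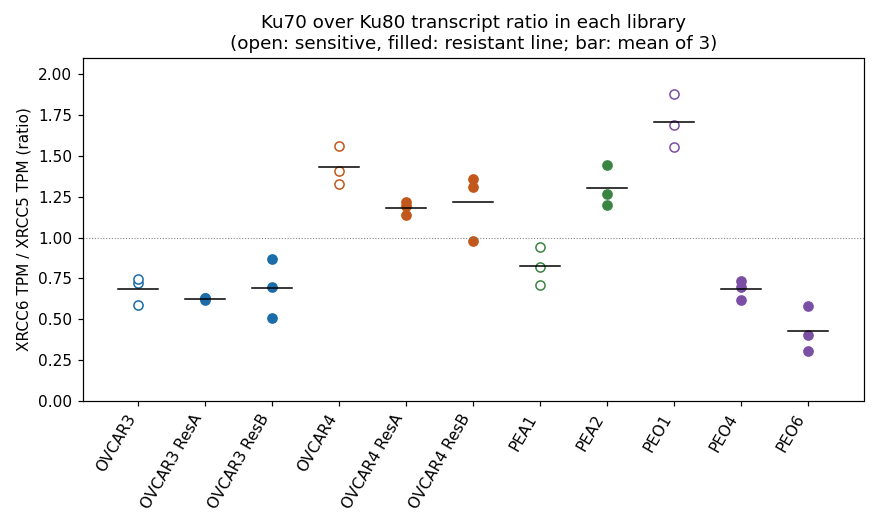
Ratio of XRCC6 to XRCC5 TPM (vertical axis, from 0) in each library of the 11 lines, open points for sensitive and filled for resistant lines, bars for the mean of 3, and a dotted line at 1. PEO1 lies between 1.55 and 1.88, PEO4 between 0.615 and 0.735 and PEO6 between 0.308 and 0.580, while the OVCAR3 lines stay below 1 and the OVCAR4 lines lie near or above it.

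LIG4 (chr13:108207442-108218349), the ligase that completes end joining, rose in OVCAR3 ResA and PEA2. It measured 4.64, 2.99 and 3.40 TPM in OVCAR3 and 9.99, 8.36 and 7.89 TPM in OVCAR3 ResA, with no overlap (1.13 ± 0.17, 2.19-fold, adjusted p = 1.56e-10). It measured 7.40, 6.00 and 9.28 TPM in PEA1 and 14.8, 15 and 13.1 TPM in PEA2, again with no overlap (1.06 ± 0.24, 2.08-fold, adjusted p = 5.33e-05). Both calls held under every alternative.

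The fold change of LIG4 was positive in all 7 pairs. In OVCAR4 it was 16, 11.4 and 10.7 TPM, in OVCAR4 ResA 20.1, 21.7 and 26.6 TPM and in OVCAR4 ResB 22.0, 30.4 and 30.1 TPM. On the TPM scale every library of both derivatives was above every OVCAR4 library, while the fold changes of normalised counts, 0.34 ± 0.30 and 0.56 ± 0.30, were not called. TPM lay higher than normalised counts in these pairs for other genes too, so the separation in TPM is not particular to LIG4. PARP1 had means of 105 and 102 TPM in the derivatives against 75.1 TPM in OVCAR4, with fold changes of -0.06 and -0.12. XRCC5 had 352 and 361 TPM against 242 TPM, with -0.01 and -0.02. LIG4 in OVCAR4 ResB passed the threshold without the replicate block (adjusted p = 0.0126), with all 33 libraries (adjusted p = 0.012) and without replicate 1 (adjusted p = 0.00435). OVCAR3 ResB had 8.53, 3.67 and 9.06 TPM (0.77 ± 0.36, adjusted p = 0.24), and passed the threshold in the fit of all 33 libraries (adjusted p = 0.00133). The PEO lines had the lowest LIG4 of the panel, 2.97 ± 0.234 to 3.51 ± 0.916 TPM, and there the changes were 0.05 ± 0.26 in PEO4 and 0.20 ± 0.35 in PEO6. Both turned negative without replicate 2 (-0.0041 and -0.11). Over the lines LIG4 spanned 9.25-fold, up to 27.5 ± 4.79 TPM in OVCAR4 ResB.

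Taking the line as the unit, with counts summed over replicates and family as a term, none of the 10 genes was called by DESeq2 or edgeR, and 0.286% of all genes were called by DESeq2. The resistant lines of a family share a parent or a patient, and PEO4 and PEO6 may share a clone, so the lines are not fully independent units. Over the 4 sensitive and 7 resistant lines LIG4 had a difference of 0.59 ± 0.24 (95% interval 0.12 to 1.06). It was the 1 gene of the 10 under an unadjusted p of 0.05 (DESeq2 adjusted p = 0.535). The other 9 ran from -0.28 ± 0.18 (PARP2) to 0.40 ± 0.26 (PARG). Without replicate 1, PARG had 0.78 ± 0.38 (adjusted p = 0.537) and LIG4 0.61 ± 0.26 (adjusted p = 0.411). A test of whether the resistant-sensitive change differed among the 7 pairs called PARP1, PARP3, RIF1, XRCC6 and LIG4, 5 of 10 against 70.2% of all genes.

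Of the 10 genes, 6 start close to a gene that runs the other way. The short stretches between the starts are shown for LIG4 and XRCC6, chosen after the values were seen, because their neighbours were called in the same pairs as they were and in no other. The bases come from RefSeq promoter windows on GRCh38.p14, which held 8 of the 10 genes. The LIG4 stretch is all 42 bases between LIG4 and ABHD13, a gene of the hydrolase fold family, at chr13:108218350-108218391, read on the minus strand. The XRCC6 stretch is the 250 bases before its start at chr22:41621045-41621294, plus strand, out of 251 bases that separate it from DESI1, a deSUMOylating isopeptidase. Capitals mark a GC box (GGGCGG) or a CCAAT box (CCAAT), searched on both strands.
LIG4: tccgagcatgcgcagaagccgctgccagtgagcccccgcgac
XRCC6: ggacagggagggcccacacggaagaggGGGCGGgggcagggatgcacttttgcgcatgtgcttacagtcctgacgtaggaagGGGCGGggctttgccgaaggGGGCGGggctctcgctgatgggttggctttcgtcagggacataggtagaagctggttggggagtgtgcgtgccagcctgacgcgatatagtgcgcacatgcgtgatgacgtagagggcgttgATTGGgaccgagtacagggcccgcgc
The XRCC6 window holds 3 GC boxes and 1 CCAAT box, and the LIG4 stretch holds no GC box. Of 27305 windows of 250 bases before a gene start, 42.3% held a GC box and 33% a CCAAT box. The LIG4 stretch is shorter than these windows, so the shares are no measure for it. Motifs for ETS, NRF1 and E2F were searched as well and were in neither of the printed stretches. A match is a description of letters and not a binding site.

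ABHD13 rose in the same 2 pairs in which LIG4 was called, by 0.57 ± 0.16 in OVCAR3 ResA (adjusted p = 0.000928) and 1.37 ± 0.24 in PEA2 (adjusted p = 1.26e-07), and was called in no other pair. Over the 11 line means ABHD13 and LIG4 had a Pearson r of 0.81, and 0.93 after the family means were taken out. DESI1 was called in the same 3 pairs as XRCC6 and in the same directions, with 0.96 ± 0.30 in PEA2 (adjusted p = 0.00469), -0.78 ± 0.18 in PEO4 (adjusted p = 0.000126) and -0.74 ± 0.23 in PEO6 (adjusted p = 0.00386). Its r with XRCC6 was 0.73 over the lines and 0.70 within families. PRKDC and MCM4 had 0.88 and 0.77. The other 3 such neighbours had negative values over the lines and positive ones within families, with -0.37 and 0.56 for PARP2 and RPPH1, -0.23 and 0.73 for PARP3 and RRP9, and -0.11 and 0.64 for TP53BP1 and MAP1A. RPPH1 differed widely between replicates of a line, with 11.9, 262 and 7.91 TPM in PEA1. MAP1A was low, with line means from 0.0235 TPM in PEA2 to 2.39 TPM in OVCAR3. Within families r was also positive for the genes that overlap an end, 0.43 for TP53BP1 and TUBGCP4 and 0.22 for RIF1 and NEB. No within-family values of genes that are not neighbours were taken, so these r have no background to be set against. The correlations of all these neighbours are over 11 lines of 4 families and carry no test.

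**Figure D5:**
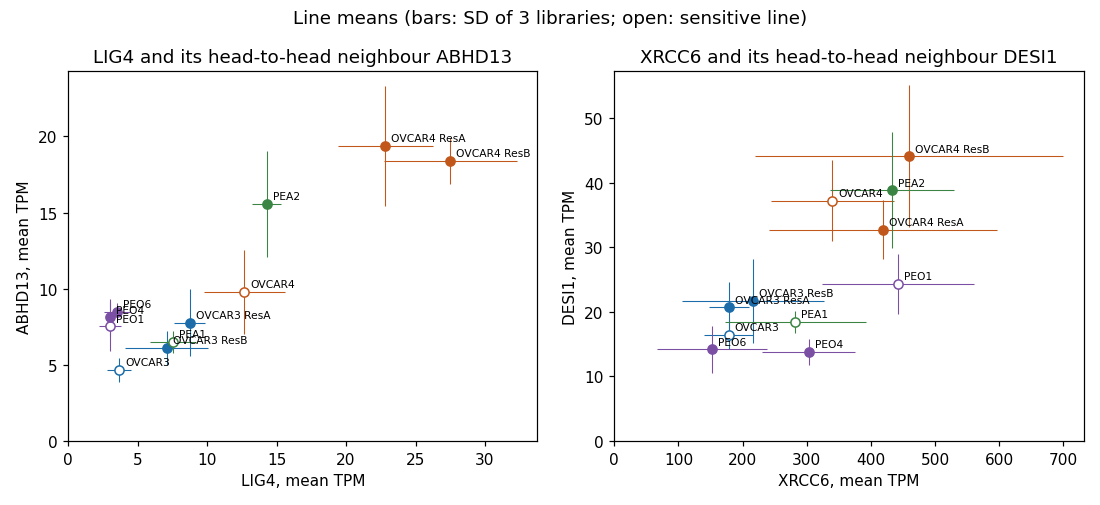
Mean TPM of LIG4 and ABHD13 (left) and of XRCC6 and DESI1 (right) in the 11 lines, with bars for the SD of 3 libraries and open points for sensitive lines. The OVCAR4 derivatives and PEA2 are high for both LIG4 and ABHD13, and PEO4 and PEO6 lie below PEO1 for both XRCC6 and DESI1.

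Among the 10 genes themselves, line means of log2(TPM + 1) were most alike for RIF1 and XRCC5 (r = 0.88 over 11 lines), followed by PARP3 and PRKDC (0.80) and PARG and XRCC6 (0.71). XRCC5 and XRCC6 had an r of 0.06. PARP2 and LIG4 had the most negative value, -0.63. Among 10604 genes with a mean of at least 5 TPM, the pattern nearest to PARP1 was WDR70 (r = 0.94), nearest to LIG4 was GPR108 (0.95), nearest to XRCC6 was RRM1 (0.94) and nearest to PARG was CAPZA2 (0.97). RIF1 was nearest to STAM2 (0.96), TP53BP1 to GNPTAB (0.96), PRKDC to HN1L (0.96), XRCC5 to EPC2 (0.91) and PARP2 to UGT2B7 (0.92). PARP3, compared with 10605 genes, was nearest to INO80C (0.97).

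The rest of the PARP family was called higher more often than lower in every pair except PEA2. Of 91 gene-by-pair values for 14 genes, 27 were called higher and 8 lower (29.7% and 8.79%), where 15.0% and 14.8% of all gene-by-pair values tested were (29.8% in all). PARP14, a mono-ADP-ribosyltransferase induced by interferon, was higher in 5 pairs and lower in PEA2. It was 1.70 ± 0.18 higher in PEO4 (60.3 ± 23.4 against 18.2 ± 3.18 TPM, adjusted p = 2.2e-20) and 1.44 ± 0.40 higher in OVCAR4 ResB (adjusted p = 0.0036). PARP10 was higher in 4 pairs, most in PEO6 (2.53 ± 0.26, 57.0 ± 20.9 against 9.76 ± 3.58 TPM, adjusted p = 3.36e-20). ZC3HAV1, an antiviral zinc finger protein of the same family, had the largest fall, -1.49 ± 0.23 in PEA2 (adjusted p = 1.87e-09). The higher and lower calls were 7 and 2 in PEO4 and 6 and 1 in PEO6. They were 5 and 0 in OVCAR4 ResB, 2 and 0 in OVCAR4 ResA, and 2 and 4 in PEA2. OVCAR3 ResA had 4 and 1, and OVCAR3 ResB 1 and 0. By gene the higher calls were uneven, with 5 for PARP14, 4 for PARP10 and 3 each for PARP8, PARP9, PARP12 and TNKS2. TIPARP had 2 higher and 3 lower calls. TNKS and PARP16 had 1 lower call each and none higher, and PARP11 and PARP15 were never called. The excess of higher calls was therefore not shared by every gene of the list. Pairs within a family share the sensitive line's libraries, so the 91 values are not independent. By pair the list's median ran from -0.09 in OVCAR3 ResA to 0.95 in OVCAR4 ResA, against -0.02 and -0.01 for all genes tested. PARP1 and PARP2 were called higher in none of the 7 pairs.

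The cofactors, erasers and readers of ADP-ribose gave 12 higher and 12 lower calls among 77, a share of 31.2% that was near the 29.8% of all genes. MACROD2, which removes mono-ADP-ribose, moved most. It rose from 0.816 ± 0.392 TPM in OVCAR4 to 58.5 ± 5.39 TPM in OVCAR4 ResA (5.69 ± 0.38, adjusted p = 1.2e-46) and 116 ± 9.09 TPM in OVCAR4 ResB (6.64 ± 0.38, adjusted p = 6.15e-64), and fell from 113 ± 18.3 TPM in PEA1 to 9.60 ± 4.55 TPM in PEA2 (-3.54 ± 0.30, adjusted p = 1.12e-29). TIMELESS, a replication fork protein that binds PARP1, was lower in 3 pairs, OVCAR3 ResA, PEA2 and PEO6.

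The other core end-joining genes gave 7 higher and 6 lower calls among 70, or 18.6% against 29.8% of all genes. XRCC4, the partner of LIG4, rose in PEA2 from 13.0 ± 1.76 to 50.6 ± 2.13 TPM (2.09 ± 0.24, adjusted p = 1.58e-17), the pair in which LIG4 also rose. DCLRE1C (Artemis), the nuclease that opens hairpin ends, fell there from 23.5 ± 4.95 to 5.90 ± 1.21 TPM (-1.99 ± 0.27, adjusted p = 1.93e-12). Genes that recruit 53BP1 or form shieldin and its partners gave 12 higher and 12 lower calls among 105 values for 15 genes, or 22.9% against the same 29.8%. PAXIP1, which binds 53BP1, was lower in 3 pairs, OVCAR3 ResA, PEO4 and PEO6. In PEA2, OBFC1 (STN1, of the CST complex) rose by 1.74 ± 0.25 (adjusted p = 9.62e-11) and H2AFX, the histone H2AX, fell by 1.88 (SE 0.23, adjusted p = 6.34e-15).

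Alternative end joining, the polymerase theta route, had the most lower calls in PEO6 of the 5 pathway lists, 5 lower and 1 higher of 9 against 20.3% lower and 21.2% higher of all genes, with a median of -0.68 against 0.02 for all genes tested. RHNO1 was lower in 3 pairs, with -1.49 ± 0.23 in PEO6 (46.6 ± 7.57 against 126 ± 25.0 TPM, adjusted p = 1.13e-09). RAD50, of the complex that starts resection, was higher in 3 pairs, with 1.21 ± 0.22 in PEO6 (62.9 ± 0.899 against 26.8 ± 3.25 TPM, adjusted p = 2.1e-07). RBBP8 (CtIP) rose in PEA2 by 1.80 ± 0.22 (adjusted p = 6.38e-15) and was called lower in 2 other pairs. Its mean was 509 TPM in PEO1, 247 TPM in PEO4 and 347 TPM in PEO6. The proliferation list was lower in PEO6 as well, and its part in the list's change was not tested.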

How the data were processed

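Messenger RNA libraries (KAPA mRNA HyperPrep, poly(A) selected) of the 33 samples were sequenced by the authors on an Illumina NextSeq, converted with DRAGEN and processed with nf-core/rnaseq on GRCh38. The authors deposited expected counts and TPM per gene from salmon, merged over samples; the annotation release and strand setting are not given in the sources used here. Expected counts were rounded and tested with DESeq2 1.42.0 (R 4.3.3), with no filter before fitting, the replicate number as a block and the 6 libraries of each comparison. Benjamini-Hochberg adjustment ran over all genes tested. Alternatives were no replicate block, edgeR 4.0.16 with TMM factors, a low-count filter, all 33 libraries in 1 fit, limma 3.58.1 on log2(TPM + 1) for genes with a mean of at least 1 TPM, and each replicate left out. Removal of the trend on transcript length and medians in place of means were added after the data were seen. Fits were tested on simulated data. The members and gene lists were chosen with earlier results of these data known. All 10 members are named. From each list, up to 2 genes with the most calls in 1 direction (at least 3) and the largest called rise and fall are named. For the rest of the PARP family the calls of further genes are given as well. Replicate numbers come from the sample titles. Same-numbered libraries deviated together (r over 0.1 in all 3) in OVCAR3 ResA with OVCAR3 (0.30 to 0.73) and OVCAR4 ResB with OVCAR4 ResA (0.49 to 0.64), and not in the other 8 comparisons. All 3 were negative for OVCAR4 with OVCAR4 ResA (-0.39 to -0.09) and with OVCAR4 ResB (-0.47 to -0.03), and for PEO6 with PEO4 (-0.40 to -0.14). Without the block, calls among all genes went from 1784 of 14993 to 3462 of 16109 in OVCAR4 ResA. In OVCAR4 ResB they went from 2853 of 15968 to 4765 of 16715. Total counts were 18058985 to 43394009. SHLD3 and the PARG copy PARGP1 were not analysed here.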

Additional observations from a re-analysis of the deposited data

Results flagged for a closer look

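The change between resistant and sensitive line differed among the 7 pairs for 5 of the 10 genes. The test was a likelihood ratio test of DESeq2 over all 33 libraries (6 coefficients). It called 13317 of 18973 genes tested (70.2%), a larger share than among the 10 genes. For PARP1 the adjusted p was 7.42e-08, with a fold change of -1.31 in OVCAR3 ResA and -0.43 to 0.07 elsewhere. For XRCC6 it was 9.93e-05, with 0.81 in PEA2 and -1.66 in PEO6. RIF1 gave 0.000323, with 1.01 in PEO4 and -0.24 in PEA2, and LIG4 gave 0.00184, with 0.05 in PEO4 and 1.13 in OVCAR3 ResA. PARP3 gave 0.00973, with -0.57 in OVCAR3 ResA and 0.66 in OVCAR4 ResB, although it was called in no single pair. With edgeR the adjusted p was 0.000313 for PARP1, 0.00381 for XRCC6, 0.00766 for RIF1, 0.0136 for LIG4 and 0.0694 for PARP3. Without replicate 2, PARP1 (0.013) and LIG4 (0.0174) were still called and XRCC6 (0.104), RIF1 (0.133) and PARP3 (0.475) were not. Without replicate 1, LIG4 was not called (0.0673) and PRKDC was (0.0427), and without replicate 3 PARP3 was not (0.187). Among all genes tested, edgeR called 12779 of 17718. The fits without replicate 1, 2 and 3 called 12741 of 18144, 9405 of 17591 and 11605 of 18209.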

How the results depend on the processing

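None of the 14 called gene-by-pair values reversed under any alternative, and 6 were called under every one (PARP1 and LIG4 in OVCAR3 ResA, LIG4 in PEA2, RIF1 and XRCC5 in PEO4, XRCC6 in PEO6). Of the 56 values not called, 31 changed sign under some alternative and 14 were called under some alternative, so the sign of an uncalled value carries little. PRKDC, TP53BP1 and PARG are limited most by the spread between replicates, PARP3 by its low counts (19 in the lowest library). The cause of the changes below was not tested.

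Without the replicate block the called genes went from 4 to 2 in OVCAR3 ResA (where the numbers pair the libraries), from 0 to 1 in OVCAR4 ResB, and from 1 to 0 between OVCAR4 ResB and OVCAR4 ResA (also paired), and the counts of the other comparisons were the same or within 1.5 times. In the fit of all 33 libraries they were 2 in OVCAR3 ResA, OVCAR3 ResB, OVCAR4 ResB and PEO6 (main counts 4, 0, 0 and 4) and 0 between OVCAR4 ResB and OVCAR4 ResA. With edgeR they were 0 between OVCAR3 ResB and OVCAR3 ResA, 2 between OVCAR4 ResB and OVCAR4 ResA and 0 between PEO6 and PEO4. With limma they were 1 in PEA2 and 0 both between OVCAR3 ResB and OVCAR3 ResA and between PEO6 and PEO4. With the length trend removed they were 2 between PEO6 and PEO4. With each replicate left out they ranged from 0 to 4 in OVCAR4 ResA, 0 to 5 in OVCAR4 ResB, 1 to 3 in PEA2 and 2 to 3 in PEO6. They ranged from 0 to 3 between OVCAR3 ResB and OVCAR3 ResA and 0 to 0 between OVCAR4 ResB and OVCAR4 ResA. They ranged from 0 to 5 between PEO6 and PEO4, and from 2 to 5 for the difference among pairs. The calls among all genes ranged as well, from 292 of 15078 to 6221 of 15254 in OVCAR4 ResA. In OVCAR4 ResB these ran from 631 of 14820 to 7241 of 15714. Between PEO6 and PEO4 these ran from 752 of 15634 to 5223 of 15972.

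These signs reversed, all of values not called with all replicates in DESeq2. With limma, OVCAR3 ResA had PARP2 0.025, XRCC5 0.13 and XRCC6 0.0089, OVCAR4 ResA had PARP1 0.46, PARP2 0.33, XRCC5 0.51 and XRCC6 0.23, and OVCAR4 ResB had PARP1 0.44, PARP2 0.12, XRCC5 0.53 and XRCC6 0.29. In both OVCAR4 pairs these genes moved up together on the TPM scale, so their reversals there are not separate. With the length trend removed, OVCAR3 ResB had PARP1 -0.087, TP53BP1 -0.0041 and RIF1 -0.024, OVCAR4 ResA had RIF1 -0.032 and PRKDC -0.080, OVCAR4 ResB had RIF1 -0.19 and PRKDC -0.080, and PEA2 had PRKDC 0.13. XRCC5 in OVCAR4 ResA was 0.012 without the block and 0.043 with all 33 libraries, and in OVCAR4 ResB 0.017 with all 33 libraries. With each replicate left out, OVCAR3 ResA gave -0.31 to 0.026 for PARP2 and -0.088 to 0.11 for XRCC5. OVCAR3 ResB gave -0.19 to 0.32 for PARP1, -0.94 to 0.22 for PARP3, -0.49 to 0.97 for PARG, -0.61 to 0.68 for TP53BP1, -0.45 to 0.96 for PRKDC, -0.27 to 0.35 for XRCC5 and -0.22 to 0.46 for XRCC6. OVCAR4 ResA gave -0.18 to 0.045 for PARP1, -0.080 to 0.25 for PARP3, -0.034 to 1.15 for PRKDC, -0.28 to 0.39 for XRCC5 and -0.50 to 0.13 for XRCC6. OVCAR4 ResB gave -0.087 to 1.13 for PRKDC, -0.29 to 0.36 for XRCC5 and -0.53 to 0.24 for XRCC6. PEA2 gave -0.40 to 0.10 for PARP1 and -0.63 to 0.54 for PRKDC. PEO4 gave -0.081 to 0.26 for PARP1, -0.58 to 0.026 for TP53BP1, -0.53 to 0.32 for PRKDC and -0.0041 to 0.14 for LIG4, and PEO6 -0.11 to 0.60 for LIG4.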
